A study of Mus musculus with 21 samples.

Results

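The genes described here code for 10 subunits of the AMPA and NMDA receptors, the channels that carry most fast excitatory signals between hippocampal neurons. They were chosen by name, as the 4 AMPA receptor subunit genes Gria1, Gria2, Gria3 and Gria4 and the 6 NMDA receptor subunit genes Grin1, Grin2a, Grin2b, Grin2c, Grin2d and Grin3a, and all 10 were found among the 55487 genes of the deposited counts table. Their mRNA levels per length, the ratios between subunits and the difference between rearing conditions were measured in hippocampus from male wild type C57BL/6 mice aged 10 weeks. Mice after maternal separation (MS) had been kept from the dam as whole nests for 4 hours on each of the postnatal days 10 to 17, alternately in the light and the dark phase, and part of the nesting material of their home cages had been removed. Control mice had standard rearing (SR). Poly-A RNA of each mouse gave 1 library, in 9 MS and 12 SR mice. The labels name no nest, and the mice are called here by the run of 3 successive animal numbers to which they belong (sets A, B and C are MS; D, E, F and G are SR) and a number within that set. The study assigned whole nests, with 3 males in each, to MS or control, and a set may be a nest. The p-values below are over mice unless sets are named, so they may rest on fewer independent units than mice.

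Both receptors are assemblies of 4 subunits that open when glutamate binds. The AMPA receptor subunits are GluA1 to GluA4, coded by Gria1 to Gria4, and they carry the fast current at most excitatory synapses. The presence of an edited GluA2 makes the channel nearly impermeable to calcium. NMDA receptors need GluN1, coded by Grin1, in every assembly, together with GluN2 or GluN3 subunits, coded by Grin2a to Grin2d and Grin3a. They pass calcium only when the membrane is already depolarised, and they trigger the lasting changes of synaptic strength for which the hippocampus is best known. In rodent forebrain, the GluN2B subunit is abundant from before birth and GluN2A increases after it, so the ratio of Grin2a to Grin2b is often used as a measure of receptor maturation.

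The part of the pore in which the families differ is shown first, since its sequence tells the AMPA, GluN1, GluN2 and GluN3 genes apart. Each line, for 9 of the 10 genes, gives the coding sequence around the codon for the residue at the narrowest part of the channel, 5′ to 3′, from the GENCODE M21 transcripts of GRCm38, with that codon in capitals and its number counted from the start codon. All sites shown lie in coding exons, and that of Grin1 is joined from 2 exons.
Gria1, chr11:57243073-57243117, plus strand, codon 600: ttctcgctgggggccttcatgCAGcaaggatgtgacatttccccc
Gria2, chr3:80706890-80706934, minus strand, codon 607: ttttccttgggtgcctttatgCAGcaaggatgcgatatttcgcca
Gria3, chrX:41610244-41610288, plus strand, codon 612: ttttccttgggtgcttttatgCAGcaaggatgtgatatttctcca
Gria4, chr9:4464116-4464160, minus strand, codon 608: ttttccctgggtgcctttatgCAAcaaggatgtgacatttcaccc
Grin1, chr2:25297292-25297409, minus strand, codon 637: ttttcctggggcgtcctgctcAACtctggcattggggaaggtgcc
Grin2a, chr16:9653540-9653584, minus strand, codon 614: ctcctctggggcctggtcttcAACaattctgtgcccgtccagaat
Grin2c, chr11:115253842-115253886, minus strand, codon 612: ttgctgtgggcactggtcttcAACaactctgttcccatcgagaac
Grin2d, chr7:45854372-45854416, minus strand, codon 639: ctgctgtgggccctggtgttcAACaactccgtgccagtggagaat
Grin3a, chr4:49770563-49770607, minus strand, codon 729: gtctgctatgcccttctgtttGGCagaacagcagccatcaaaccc

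The 4 AMPA receptor genes have a glutamine codon at this place. In Gria2 it is the site that the enzyme coded by Adarb1 edits in the RNA, so that the protein has an arginine there. The NMDA receptor genes shown have an asparagine codon, except Grin3a, which has a glycine codon. Over the 45 bases, Gria2 and Gria3 had 42 in common, and Grin2a and Grin2d had 36 in common. Gria2 and Grin2a had 12 in common. The counts below measure the amount of each mRNA and say nothing of how much of the Gria2 mRNA was edited.

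The library of MS mouse A2 stood apart from the others and was left out, as the study left out 1 outlier in its principal component analysis (PCA) without naming it. On the first component A2 had a score of 27.1, and the other 20 libraries lay between -12.2 and 11.9. The summed level of 5 dentate granule cell markers was 25.6 CPM (counts of a gene scaled to the normalized total of its library) in A2 and 203 to 481 CPM in the others, and that of 7 striatal markers was 1969 CPM in A2 and 81.9 to 680 CPM in the others. Marker genes of dentate granule cells and of CA pyramidal cells (565 to 867 CPM in sum) were detected in all of the 20 other hippocampi. Total counts of those libraries lay between 17276810 and 24052716 in 8 MS mice (median 20851843.5) and between 18368519 and 26450808 in 12 SR mice (median 23210558), and values below are over these 20 mice unless A2 is named.

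Gria1 had the highest level per length of the 10 genes, and the other genes lay in steps below it. Levels per length are given as RPKM, CPM divided by the length in kilobases of all exons of the gene merged. Gria1, which codes for the GluA1 subunit of AMPA receptors on principal cells, had 173 ± 31.0 RPKM (SD, n = 20 mice). Gria2, the subunit that limits calcium entry, had 57.5 ± 3.88 RPKM, and Grin1, the obligatory NMDA receptor subunit, had 55.5 ± 4.04 RPKM. Gria1 was above Gria2 in 20 of 20 mice, while Gria2 was above Grin1 in only 13 of 20, so the levels of these neighbours did not differ beyond their spread.

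A middle group followed. Gria3 had 22.8 ± 1.65 RPKM, Grin2b 22.4 ± 2.44 RPKM and Grin2a 19.5 ± 2.04 RPKM. Grin2c, which codes for a GluN2 subunit best known from the cerebellum, had 15.7 ± 1.47 RPKM. Gria3 was above Grin2b in 9 of 20 mice, so that these neighbours could not be put in order. Grin2b was above Grin2a in 20 of 20 mice although the ranges of the pair overlapped, and Grin2a was above Grin2c in 19 of 20.

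Gria4 had 9.74 ± 1.95 RPKM. The lowest levels were those of Grin3a, which codes for a GluN3 subunit, at 3.21 ± 0.532 RPKM and of Grin2d, which codes for a GluN2 subunit typical of interneurons, at 2.90 ± 0.361 RPKM. Grin3a was above Grin2d in 15 of 20 mice. All 10 genes passed the filter on low counts, and the least abundant, Grin2d, had 329 to 540 counts per library.

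The order depended in part on the length that was used. Divided by the merged exons, Gria1 was 2.99 times the next gene, Gria2, and above it in 20 of 20 mice. Divided by the longest annotated transcript, Gria1 (188 ± 33.8 RPKM) was above the next gene, Grin1, in 19 of 20 mice, with ranges that overlapped. The level of Grin1 then was 126 ± 9.15 RPKM and that of Gria2 86.3 ± 5.82 RPKM, and Grin1 was above Gria2 in 20 of 20 mice. The merged exons of Grin1 span 9700 bases and its longest transcript 4276 bases, so the choice matters more for it than for Gria3 (9859 and 5206 bases) or Grin2b (24842 and 24060 bases). With the longest transcript, Grin2a (23.9 ± 2.50 RPKM) was above Grin2b (23.2 ± 2.52 RPKM) in 15 of 20 mice. Comparisons of 1 gene between mice are the same with either length.

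**Figure D1:**
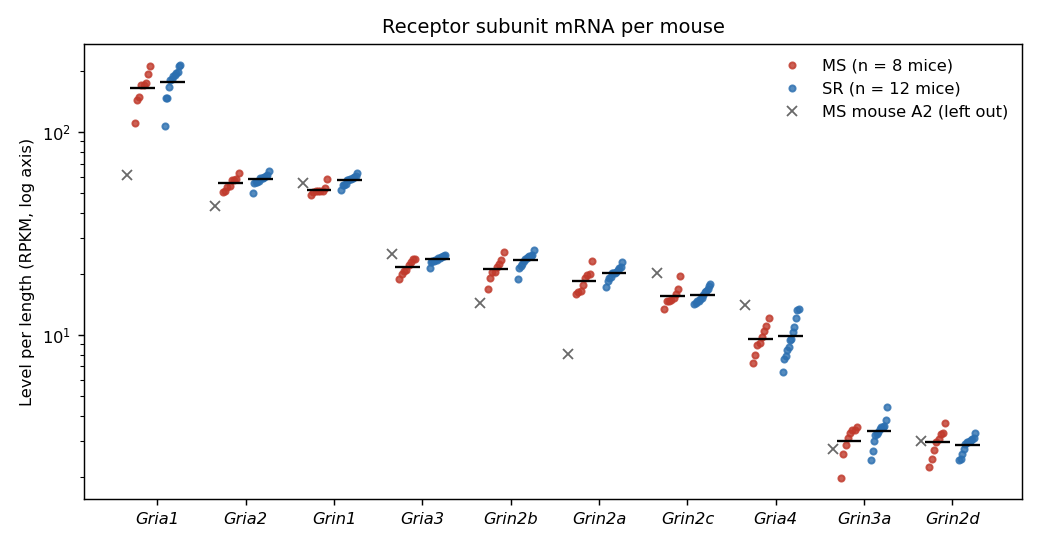
Level per length (RPKM over merged exons, log axis) of each subunit gene, with a point per mouse (red, 8 MS; blue, 12 SR), a line at each group mean and a cross for MS mouse A2, which was left out. Gria1 (173 RPKM over 20 mice) stands above the other genes, MS and SR points overlap for all 10 genes, and the cross lies lowest in Gria1, Gria2, Grin2a and Grin2b.

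Within the AMPA receptor family, Gria1 made up 65.1% ± 4.33 of the summed RPKM in MS (SD, n = 8) and 65.4% ± 4.27 in SR (n = 12). Gria2 made up 22.3% ± 1.95 and 21.9% ± 1.71, Gria3 8.66% ± 1.44 and 8.88% ± 1.21, and Gria4 3.90% ± 1.12 and 3.80% ± 1.40. The makeup of the family thus differed between conditions by less than 1 SD for each gene. Among the 4 GluN2 genes, Grin2b made up 36.3% ± 1.94 in MS and 37.5% ± 1.69 in SR, and Grin2a 31.7% ± 1.44 and 32.5% ± 0.936. Grin2c made up 26.9% ± 2.71 in MS and 25.4% ± 2.40 in SR, and Grin2d 5.10% ± 0.925 and 4.64% ± 0.474. The summed RPKM of the AMPA receptor genes was 2.23 ± 0.215 times that of the NMDA receptor genes in MS and 2.19 ± 0.222 times in SR. These values depended on the length used. With the longest transcript, the last ratio was 1.69 ± 0.145 in MS and 1.65 ± 0.162 in SR. Gria1 then made up 56.7% of the AMPA receptor sum in MS and 56.9% in SR. Among the GluN2 genes, Grin2a then made up 35.3% in MS and 36.1% in SR, and Grin2b 34.0% and 35.1%.

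The ratio of Grin2a to Grin2b, which addresses the balance of the main GluN2 genes after separation, had the smallest standard error of the 7 ratios compared. It ran from 0.802 in mouse B1 over a median of 0.872 to 0.950 in mouse C1 in MS, and from 0.822 in F2 over a median of 0.871 to 0.912 in E2 in SR. The MS mice thus lay on both sides of the SR mice, and their mean of 0.875 ± 0.0428 (SD, n = 8) was close to the SR mean of 0.866 ± 0.0313 (n = 12). The difference of the log2 ratios was 0.01 (SE 0.0291; exact permutation test, two-sided p = 0.606, adjusted p = 0.945 over the 7 ratios). Grin2a was below Grin2b per length in each of the 20 mice. With the length of the longest transcript, the means were 1.04 in MS and 1.03 in SR, so the side of 1 on which the ratio lies depended on the length used and its comparison between conditions did not.

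The ratios of the less abundant GluN2 genes to Grin2b were higher on average in MS, without passing the test. Grin2d to Grin2b was 0.141 ± 0.0266 in MS and 0.124 ± 0.0130 in SR, a log2 difference of 0.17 (SE 0.104; exact permutation test, two-sided p = 0.0847, adjusted p = 0.448). MS mice A1, B1 and B2 lay above all SR mice, at 0.173, 0.181 and 0.160 against an SR maximum of 0.147 in D2, while MS mouse A3 had 0.113. Grin2c to Grin2b was 0.746 ± 0.115 in MS and 0.681 ± 0.0992 in SR, a log2 difference of 0.13 (SE 0.0969; exact permutation p = 0.192, adjusted p = 0.448), and 1 of 8 MS mice was below the SR median. In both ratios the difference of the means was smaller than the SD of the MS mice. Against the SD of the SR mice, it was larger for Grin2d to Grin2b and smaller for Grin2c to Grin2b.

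Among the AMPA receptor ratios, Gria1 to Gria2 was 2.95 ± 0.405 in MS and 3.02 ± 0.399 in SR, a log2 difference of -0.04 (SE 0.0975; exact permutation test, two-sided p = 0.715, adjusted p = 0.945). It ran from 2.08 in A1 to 3.401 in C2 in MS and from 2.12 in E2 to 3.58 in F3 in SR. The next lowest values were 2.84 in B2 in MS and 2.59 in D2 in SR. Gria3 to Gria2 was 0.386 ± 0.0355 in MS and 0.404 ± 0.0255 in SR (log2 difference -0.07, SE 0.0546; exact permutation p = 0.189, adjusted p = 0.448). Gria4 to Gria2 was 0.173 ± 0.0367 in MS and 0.170 ± 0.0481 in SR (log2 difference 0.04, SE 0.159; exact permutation p = 0.817, adjusted p = 0.945). Grin3a to Grin1 was 0.0579 ± 0.0106 in MS and 0.0582 ± 0.0109 in SR (log2 difference -0.01, SE 0.132; exact permutation p = 0.945, adjusted p = 0.945). None of the 7 ratios passed the test, and the standard errors leave room for differences of the sizes given.

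**Figure D2:**
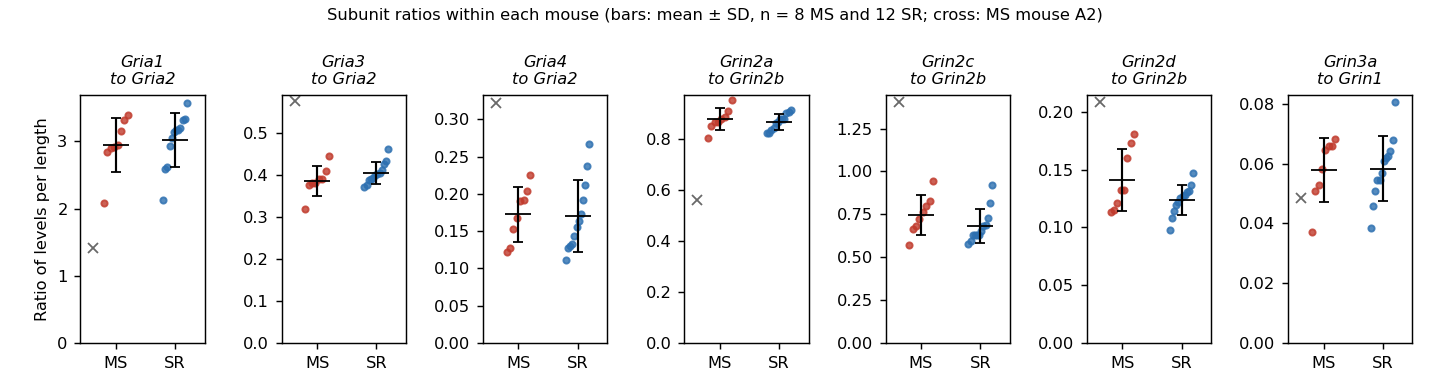
Ratios of levels per length within each mouse for 7 pairs of subunit genes, with a point per mouse (red, 8 MS; blue, 12 SR), bars at the mean ± SD and a cross for MS mouse A2. MS and SR overlap in every panel, and Grin2a to Grin2b lies between 0.802 and 0.950 in MS, with A2 below that range at 0.558.

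The comparison of MS with SR asked whether early separation leaves a lasting difference in the mRNA of these receptors. Of the 10 genes, 9 were lower in MS and 1, Grin2d, was higher, with a median log2 fold change of -0.11, while 49.7% of all genes tested were lower and their median was 0.00084. None of the 10 passed the quasi-likelihood test of edgeR at an adjusted p under 0.05, a test that called 0.011% of the 18146 genes (Gng5 and Spef1). At an unadjusted p under 0.05, 3 of the 10 were found, all lower, beside 11.5% of all genes (4.92% lower). The Wald test of DESeq2 called 1 of the 10, Grin1, beside 0.966% of the genes to which it gave an adjusted p. The MS and SR mice overlapped for all 10 genes, and the share of all tested genes with such an overlap was not computed.

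Grin1 (ENSMUSG00000026959, chr2:25291181-25319187, minus strand) had the smallest p of the 10. Its level ran from 478 CPM over a median of 498 CPM to 567 CPM in MS and from 504 CPM over a median of 567 CPM to 608 CPM in SR. Of the MS mice, 6 (A1, A3, B1, B2, B3 and C3) lay below the lowest SR mouse, C1 lay at 515 CPM near the low end of the SR range, and C2 lay at the SR median. The means were 505 ± 27.0 CPM in MS (SD, n = 8) and 561 ± 29.3 CPM in SR (n = 12), a log2 fold change of -0.15 (SE 0.0378; edgeR adjusted p = 0.141; DESeq2 adjusted p = 0.0194). By set of animal numbers, the means were 486, 498 and 527 CPM in the MS sets A, B and C and 564, 567, 573 and 539 CPM in the SR sets D to G.

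The log2 fold change of Grin1 was between -0.19 and -0.13 whichever mouse or set was left out, and its call changed. Without set A it was -0.13 (edgeR adjusted p = 0.492), and without set B it was -0.14 (edgeR adjusted p = 0.362). Without C2, the log2 fold change was -0.18 (edgeR adjusted p = 0.0420), and without the whole set C it was -0.19 (edgeR adjusted p = 0.0152). In the low range of animal numbers (A, B, D, E and F) the log2 fold change of Grin1 was -0.20 (SE 0.0371; edgeR adjusted p = 0.0183), and in the high range (C and G, 3 mice each) it was -0.03 (SE 0.0820; edgeR adjusted p = 0.973). Of all genes, 230 of 18395 were called in the low range and 0 of 17940 in the high range. The test of the difference between the ranges, added after seeing the data, gave 0.17 (SE 0.0763; edgeR unadjusted p = 0.0351, adjusted p = 0.548). Counts summed within each set gave -0.15 (edgeR adjusted p = 0.429).

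The general neuron markers varied in the same direction as Grin1, and markers of the choroid plexus in the opposite direction. For the dentate granule cell, CA pyramidal cell and interneuron markers, r with Grin1 was 0.38, 0.34 and -0.46 (permutation test, adjusted p = 0.25, 0.302 and 0.138). The rho of these lists was 0.39, 0.59 and -0.28 (permutation test, adjusted p = 0.271, 0.0369 and 0.452). Of 8 interneuron markers, 6 were higher in MS and 2 lower, and none was called. For the choroid plexus markers, r with Grin1 was -0.63 and rho -0.59 (permutation p = 0.00372 and 0.00699, adjusted p = 0.0322 and 0.0369). This r was -0.59 without the 2 mice farthest from the median, -0.96 in MS and -0.40 in SR. All 5 general neuron markers were lower in MS, 2 of them at an unadjusted p under 0.05 and none after adjustment, and their sum ran from 3597 to 4043 CPM in MS and from 3874 to 4304 CPM in SR, with no marker at 0. With their score as a term in the fit, a term added after seeing the data, the log2 fold change of Grin1 was -0.07 (SE 0.0439; edgeR adjusted p = 0.691). In bulk tissue, fewer neurons and less RNA per neuron cannot be told apart. All 6 choroid plexus markers were higher in MS and none was called, and they summed to between 52.2 and 4160 CPM in MS and between 28.2 and 4483 CPM in SR, and C2, the MS mouse with the most Grin1, was the one at 52.2 CPM. With the choroid plexus score as a term, the log2 fold change of Grin1 was -0.12 (SE 0.0356; edgeR adjusted p = 0.360).

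An antisense gene shares sequence with Grin1. Grin1os lies on the opposite strand and has 1307 exon bases in common with Grin1, and the use of strand in the counting is not given in the sources used here, so reads of these bases are of uncertain origin. Grin1os had 31.0 ± 3.03 CPM in MS and 35.98 ± 2.63 CPM in SR, a log2 fold change of -0.21 (SE 0.0539; edgeR adjusted p = 0.134). Over all libraries it held 16152 counts and Grin1 251412. Grin2d shares 643 exon bases with the antisense gene Gm45441, which held 928 counts against 8982 for Grin2d.

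**Figure D3:**
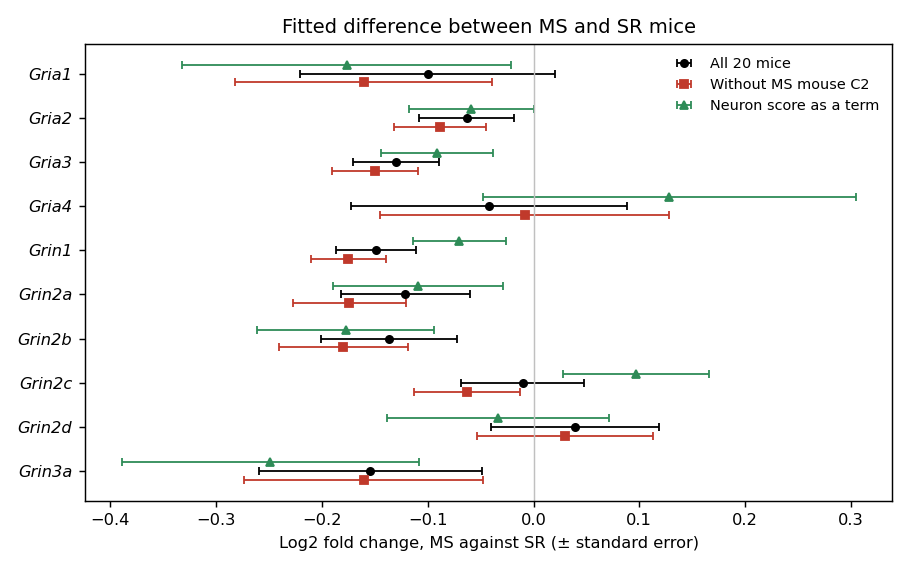
Log2 fold change of MS against SR with its standard error for each subunit gene, over the 20 mice (black), without MS mouse C2 (red) and with the neuron marker score as a term (green). Grin1 moves from -0.15 to -0.18 without C2 and to -0.07 with the neuron score, and the values of Gria4, Grin2c and Grin2d change sign with the neuron score.

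Gria3 (ENSMUSG00000001986, chrX:41400854-41678601, plus strand) was the next of the 10 by its p. It ran from 185 CPM over a median of 212 CPM to 235 CPM in MS and from 211 CPM over a median of 233 CPM to 243 CPM in SR, and 4 of the 8 MS mice, A3, B1, B2 and C1, lay below all SR mice. The means were 213 ± 17.6 CPM and 233 ± 9.16 CPM, a log2 fold change of -0.13 (SE 0.0405; edgeR adjusted p = 0.212). The means of the MS sets were 219, 209 and 212 CPM, and those of the SR sets were 235, 230, 238 and 227 CPM.

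The 2 main GluN2 genes were lower in 7 of 8 MS mice than the SR median. Grin2b ran from 416 to 634 CPM in MS (median 521) and from 470 to 654 CPM in SR (median 592), with a log2 fold change of -0.14 (SE 0.0641; edgeR adjusted p = 0.417). Grin2a ran from 285 to 416 CPM in MS (median 328) and from 309 to 409 CPM in SR (median 362), with a log2 fold change of -0.12 (SE 0.0609; edgeR adjusted p = 0.455). In both genes C1 was the lowest MS mouse and C2 the highest, so that mice of a single set held both ends of the MS range.

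**Figure D4:**
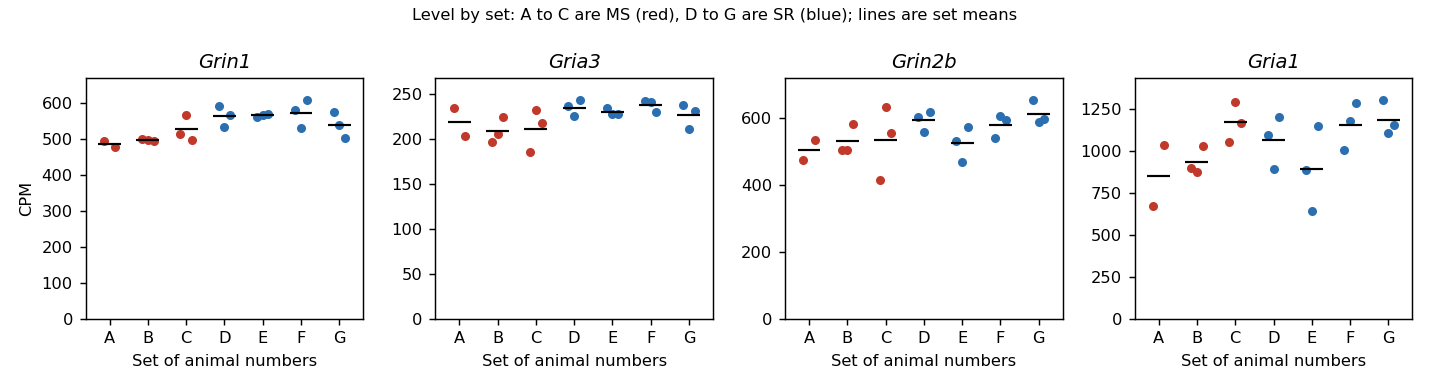
CPM of Grin1, Gria3, Grin2b and Gria1 by set of 3 consecutive animal numbers, with a point per mouse (red, MS sets A to C; blue, SR sets D to G) and a line at each set mean. The MS set means of Grin1 lie at 486 to 527 CPM and the SR set means at 539 to 573 CPM, and Gria1 varies more within the sets than between the conditions.

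The other AMPA receptor genes showed smaller differences relative to their spread. Gria2 was at 871 ± 64.7 CPM in MS and 910 ± 54.4 CPM in SR (log2 fold change -0.06, SE 0.0450; edgeR adjusted p = 0.618). Gria1 was at 1002 ± 188 CPM in MS and 1074 ± 189 CPM in SR (log2 fold change -0.10, SE 0.120; edgeR adjusted p = 0.800), with a lowest value of 672 CPM in A1 and of 645 CPM in E2. Gria4 was at 60.3 ± 10.1 CPM in MS and 62.1 ± 14.0 CPM in SR (log2 fold change -0.04, SE 0.130; edgeR adjusted p = 0.936). Gria1 and Gria4 had the largest variation between mice of the 10 genes, with coefficients of variation of 17.9% and 20.04% over the 20 mice, where Gria2, Gria3 and Grin1 had 6.75%, 7.23% and 7.27%.

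The less abundant NMDA receptor genes had no common direction. Grin3a was at 36.9 ± 6.42 CPM in MS and 41.0 ± 6.32 CPM in SR (log2 fold change -0.15, SE 0.105; edgeR adjusted p = 0.600). Grin2c was at 78.6 ± 9.34 CPM in MS and 79.2 ± 6.22 CPM in SR (log2 fold change -0.01, SE 0.0579; edgeR adjusted p = 0.968). Grin2d was at 19.7 ± 3.20 CPM in MS and 19.1 ± 1.82 CPM in SR (log2 fold change 0.04, SE 0.0790; edgeR adjusted p = 0.898), with 2 MS mice above and 1 below all SR mice.

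All 10 are long genes by their transcripts. With all tested genes put in 10 equal bins by length, the median log2 fold change ran from 0.04 in the bin of the shortest to -0.03 in that of the longest, and the 10 subunit genes lay in bin 8 (2 genes), bin 9 (4 genes) and bin 10 (4 genes). With the trend of counts with transcript length as a term, the log2 fold change of Grin1 was -0.16 (edgeR adjusted p = 0.0933).

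The levels of several subunits varied together from mouse to mouse. Among the 45 pairs, 15 had an adjusted permutation p of Pearson's r under 0.05, 13 with a positive and 2 with a negative r. Grin2a and Grin2b were the closest pair (r = 0.93, rho = 0.92, permutation p = 1e-05 for each, the smallest that 100000 draws give, adjusted p = 0.0003 for r; r = 0.94 without the 2 mice farthest from the median). Gria1 and Gria2 had r = 0.85 and rho = 0.91 (permutation p = 2e-05 and 1e-05, adjusted p = 0.0003 and 0.000113; r = 0.84 without the 2 mice). Gria1 and Gria4 varied in opposite directions (r = -0.79, rho = -0.81; permutation p = 2e-05 and 5e-05, adjusted p = 0.0003 and 0.000375; r = -0.75 without the 2 mice), with r = -0.74 among MS and r = -0.86 among SR mice. Grin1 and Grin2b, which form part of one receptor, had r = 0.41 and rho = 0.45 (permutation p = 0.0758 and 0.0463, adjusted p = 0.18 and 0.123; r = 0.39 without the 2 mice).

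Gria1 and Gria4 also varied with the markers of hippocampal and cortical cells, most closely among the 130 relations computed between the 10 genes and 13 marker lists. The r with a marker list, here and elsewhere, was not computed from the summed CPM that describes the list. Gria1 was higher in mice with more of the dentate granule cell markers (r = 0.91, rho = 0.86; permutation p = 1e-05 for each, adjusted p = 0.000325 and 0.00065; r = 0.86 without the 2 mice farthest from the median). Gria1 was also higher with more of the CA pyramidal cell markers (r = 0.90, rho = 0.72; permutation p = 1e-05 and 0.00066, adjusted p = 0.000325 and 0.0078; r = 0.71 without the 2 mice). Its relation to the neocortex markers was opposite (r = -0.85, rho = -0.72; permutation p = 3e-05 and 0.0006, adjusted p = 0.00065 and 0.0078; r = -0.66 without the 2 mice). Gria4 had the reverse pattern, with r = -0.87 and rho = -0.89 for the dentate granule cell markers (permutation p = 1e-05 for each, adjusted p = 0.000325 and 0.00065; r = -0.84 without the 2 mice) and r = 0.84 and rho = 0.83 for the neocortex markers (permutation p = 1e-05 and 3e-05, adjusted p = 0.000325 and 0.0013; r = 0.83 without the 2 mice). For the CA pyramidal cell markers, Gria4 had r = -0.70 and rho = -0.69 (permutation p = 0.0003 and 0.00102, adjusted p = 0.00433 and 0.00853; r = -0.62 without the 2 mice). These relations had the same sign within MS and within SR. MS mouse A1 and SR mouse E2, with the lowest Gria1 of their conditions, had the highest sums of neocortex markers (446 and 409 CPM) and the lowest of dentate granule cell markers (203 and 210 CPM). All 5 dentate granule cell markers and all 6 neocortex markers were lower in MS and none was called, and the neocortex sums ran from 228 to 446 CPM in MS and from 233 to 409 CPM in SR. The log2 fold change of Gria1 was -0.04 without A1 and -0.16 without C2, and between -0.25 and -0.03 when any mouse or set was left out.

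Markers of striatal medium spiny neurons varied with the levels of several subunits. All 7 were higher in MS, with a median log2 fold change of 0.48, and none was called. Their sum ran from 81.9 to 680 CPM in MS and from 88.1 to 425 CPM in SR, with medians of 120 and 107 CPM. B1 held the highest MS value and E2 the highest SR value. The next highest were 161 CPM in A1 and 160 CPM in E1. Gria2 was lower in mice with more of these markers (r = -0.75, rho = -0.76; permutation p = 3e-05 and 0.00018, adjusted p = 0.00065 and 0.0039; r = -0.70 without the 2 mice farthest from the median). Gria1 had r = -0.66 and rho = -0.74 (permutation p = 0.0048 and 0.00027, adjusted p = 0.0367 and 0.00501; r = -0.79 without the 2 mice), and Grin2a had r = -0.63 and rho = -0.69 (permutation p = 0.00166 and 0.00105, adjusted p = 0.0154 and 0.00853; r = -0.62 without the 2 mice). The part of these markers in the differences between MS and SR was not tested. All levels come from the same libraries and share their normalization.

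Grin2d varied with the interneuron markers (r = 0.59, rho = 0.52; permutation p = 0.00583 and 0.0197, adjusted p = 0.0421 and 0.0826; r = 0.48 without the 2 mice). Grin1 and Gria3 varied with the general neuron markers. For Gria3, r was 0.77 and rho 0.72 (permutation p = 5e-05 and 0.00055, adjusted p = 0.000929 and 0.0078; r = 0.76 without the 2 mice), with r = 0.80 in MS and 0.36 in SR. For Grin1, r was 0.71 and rho 0.69 (permutation p = 0.00056 and 0.00103, adjusted p = 0.00728 and 0.00853; r = 0.70 without the 2 mice), with r = 0.55 in MS and 0.32 in SR, so that part of the pooled relation lay between the conditions. With the neocortex score as a term, added after seeing the data, the standard error of the log2 fold change of Gria1 was 0.0551 in place of 0.120, and the value was -0.17 (edgeR adjusted p = 0.162). With the dentate granule cell score as a term, also added after seeing the data, it was -0.04 (SE 0.0524; edgeR adjusted p = 0.784).

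**Figure D5:**
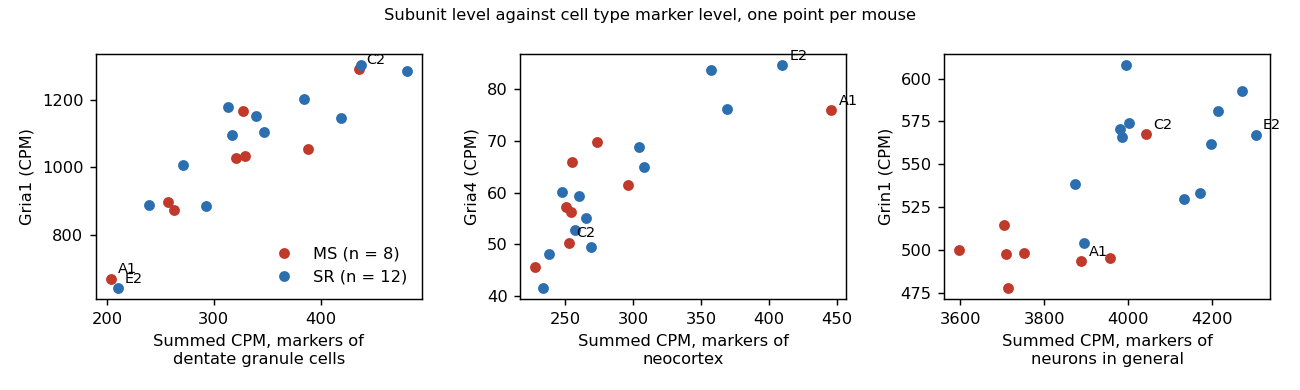
Level of a subunit gene (CPM) against the summed CPM of a marker list, with a point per mouse (red, 8 MS; blue, 12 SR) and the mice A1, E2 and C2 named. Gria1 is higher with more dentate granule cell markers (r = 0.91), Gria4 with more neocortex markers (r = 0.84) and Grin1 with more general neuron markers (r = 0.71), and A1 and E2 lie at the low end for Gria1. The r values are those of the text and were not computed from the summed CPM plotted.

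Among 15855 genes with a mean of at least 1 CPM, the genes whose log2 CPM followed each subunit most closely over the 20 mice were found by Pearson's r, as a description without a test. For Gria1 these were Nr3c2, the mineralocorticoid receptor (r = 0.99), and Slc24a3, a sodium, potassium and calcium exchanger (r = 0.98). For Gria2 they were Ppp3cb, a catalytic subunit of calcineurin (r = 0.94), and Ywhab (r = 0.92), for Gria3 Gm10419 (r = 0.89) and Hivep2 (r = 0.87), and for Gria4 Necab1 and Limk1, an actin regulating kinase (r = 0.95 and 0.94). Grin1 was followed by Kalrn, an exchange factor of dendritic spines (r = 0.87), and Sept3 (r = 0.85). Grin2a was followed by Sort1 (r = 0.96) and Prickle2 (r = 0.94), and Grin2b by Nav1 (r = 0.94) and by Grin2a itself. Grin2c was followed by Map3k10 (r = 0.88) and Dlgap3, a postsynaptic scaffold gene (r = 0.86), Grin2d by Spire2 and Alk (r = 0.79 for each), and Grin3a by Caln1 and Rab3c (r = 0.93 and 0.92).

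The wider glutamate receptor pathway was described with 76 further genes, of which 74 passed the filter on low counts. None of the 74 was called by edgeR. At an unadjusted p under 0.05, 1 of the 74 was higher and 5 were lower in MS, beside 11.5% of all genes tested (4.92% lower). In all, 19 were higher and 55 lower, beside 49.7% lower among all genes, with a median log2 fold change of -0.05. Among the kainate and delta receptor genes, 7 of 7 were lower, 2 of them at an unadjusted p under 0.05, with a median of -0.09. Grid1, a delta receptor, had the smallest p of these (log2 fold change -0.13, SE 0.0532; edgeR adjusted p = 0.343), and Grik5, a kainate receptor subunit, had the highest level per length in SR at 62.4 RPKM. Grin3b, the remaining NMDA receptor subunit gene, was near the limit of detection at 0.157 RPKM in SR.

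Of the metabotropic glutamate receptor genes, 7 of 8 were tested, with 2 higher, 5 lower and a median of -0.05. Grm5, which couples to phospholipase C, was the most abundant at 24.6 RPKM in SR, Grm7 had the smallest p among the lower genes (log2 fold change -0.07, SE 0.0446; edgeR adjusted p = 0.576) and Grm4 among the higher ones (log2 fold change 0.04, SE 0.223; edgeR adjusted p = 0.964). Of 22 genes for AMPA receptor auxiliary and biogenesis proteins, 7 were higher and 15 lower, with a median of -0.04. Cnih2, a cornichon that slows the closing of AMPA receptors, had the highest level at 247.3 RPKM in SR. Another gene of the list had 246.6 RPKM, too close to put them in order. Cacng7 (log2 fold change -0.08, SE 0.0497; edgeR adjusted p = 0.538) and Abhd6 (log2 fold change 0.04, SE 0.0436; edgeR adjusted p = 0.801) had the smallest p in each direction.

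Of the NMDA and kainate receptor partners, 12 of 13 genes were tested, with 4 higher, 8 lower and a median of -0.04. Camk2a, the kinase activated by calcium through NMDA receptors, had 585 RPKM in SR. Srr, which makes the NMDA receptor co-agonist D-serine, had the smallest p among the lower genes (log2 fold change -0.11, SE 0.0479; edgeR adjusted p = 0.400), and Slc7a10, a transporter of D-serine, among the higher ones (log2 fold change 0.13, SE 0.0788; edgeR adjusted p = 0.543). Among 9 receptor trafficking genes, 1 was higher and 8 lower, with a median of -0.07. Grip1, a scaffold that binds GluA2, had a log2 fold change of -0.17 (SE 0.0736; edgeR adjusted p = 0.366), Pick1 had 0.04 (SE 0.0668; edgeR adjusted p = 0.857) and Nsf was the most abundant at 127 RPKM in SR.

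Among 6 genes of RNA editing and subunit regulation, 1 was higher and 5 lower, with a median of -0.02. Rest, a repressor of neuronal genes, was at 6.62 ± 1.11 CPM in MS and 5.73 ± 0.461 CPM in SR (log2 fold change 0.21, SE 0.0817; edgeR adjusted p = 0.331). Adarb2 had a log2 fold change of -0.19 (SE 0.0834; edgeR adjusted p = 0.382), and Adar had the highest level at 20.2 RPKM in SR. Adarb1, the editor of the Gria2 site shown above and named here for that role after its values were seen, was at 192 ± 14.9 CPM in MS and 194 ± 14.0 CPM in SR (log2 fold change -0.01, SE 0.0474; edgeR adjusted p = 0.950). Of 10 genes of glutamate packaging, uptake and metabolism, 4 were higher and 6 lower, with a median of -0.03. Glul, the glutamine synthetase of astrocytes, had both the highest level at 404 RPKM in SR and the smallest p among the higher genes (log2 fold change 0.09, SE 0.0468; edgeR adjusted p = 0.455), and Slc1a2, the main glial glutamate transporter, had the smallest among the lower ones (log2 fold change -0.09, SE 0.0580; edgeR adjusted p = 0.559).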

How the data were processed

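Hippocampal poly-A RNA of 21 male mice (9 MS, 12 SR, grouped by their labels) was sequenced with 1 library per mouse. The authors aligned the reads with STAR 2.7.3a to GRCm38, counted them with featureCounts, and deposited raw counts per Ensembl gene without a filter. Symbols, lengths and positions were taken from GENCODE M21 (55227 of 55487 genes matched). MS mouse A2 was left out. Counts were filtered with filterByExpr (minimum count 10), scaled by TMM and tested with the robust quasi-likelihood test of edgeR 4.0.16 under R 4.3.3. Its p-values were adjusted over all tested genes by the Benjamini-Hochberg method, and 0.05 was the threshold. DESeq2 1.42.0 and limma 3.58.1 served as alternatives, beside other filters, scalings, terms and left-out libraries or sets. Ratios were tested as log2 ratios of counts plus 0.5 by exact two-sided permutation over 125970 splits, and correlations by 100000 permutations (SciPy 1.17.1). Scripts were tested on simulated data. There the edgeR test called 2% of 50 genes changed 1.1-fold, 60% of those changed 1.3-fold and 48% of those changed 0.769-fold. A gene that was not called may therefore still differ by a small amount. Counting error falls with depth, so it is largest for Grin2d. The members and lists were chosen with earlier results of these data known. All 10 subunit genes were named by rule. Of the pathway lists, every gene called, the gene with the smallest p in each direction and the most abundant gene per length in SR were named. For likeness, the 2 genes of highest r were named. The pore sequence of 1 gene is not reported here.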

Additional observations from a re-analysis of the deposited data

Results flagged for a closer look

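Of 17 groups of values tested for a sample far from the others, 2 had one, and chance gives about 1 in 20. Grin1 was at 567 CPM in MS mouse C2, and the next MS mouse had 515 CPM, a gap of 0.588 of the range of the MS mice. The ratio of Gria1 to Gria2 was 2.08 in MS mouse A1, and the next MS mouse had 2.84, a gap of 0.578 of the range.

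The library of MS mouse A2, which the main comparisons did not use, held 3 subunit genes at a higher level than any SR mouse. Gria3 was at 247 CPM against an SR maximum of 243 CPM, Gria4 at 88.0 CPM against 84.6 CPM, and Grin2c at 101.6 CPM against 90.0 CPM. The CPM of A2 were scaled over all 21 libraries and those of the other mice over 20. A gap as small as that of Gria3 is therefore uncertain. The same library had 369 CPM of Gria1, 144 CPM of Grin2a and 357 CPM of Grin2b, each below all of the 20 other mice, and the summed markers of dentate granule cells and of striatal neurons in it are given with the description of the libraries.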

How the results depend on the processing

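The count of subunit genes called was 0, with 3 at an unadjusted p under 0.05, and was 1 (Grin1) with DESeq2 and in the low range of animal numbers alone, and 0 to 1 when a mouse or set was left out (1 without C2 or set C). The count over all genes was 2. It was 134 with DESeq2, 1 with all 21 libraries and with no filter on low counts, 0 with the choroid plexus score or the neuron score as a term and with counts summed within sets, 230 in the low and 0 in the high range, and 0 to 340 when a mouse or set was left out (109 without C2, 109 without C3 and 340 without set C). No ratio had an adjusted p under 0.05 in any alternative run; Grin2d to Grin2b was at 0.24 with all 21 libraries (exact permutation p = 0.0341, adjusted p = 0.239). The log2 ratio of Gria1 to Gria2 was 0.0021 and that of Gria4 to Gria2 -0.12 in the high range, Grin2a to Grin2b was -0.058 with all 21 libraries and -0.028 in the low range, and Grin3a to Grin1 was 0.12 in the low range, each of the other sign than over the 20 mice. The cause was not tested. When a mouse or set was left out, they ran from -0.12 to 0.034 (Gria1 to Gria2), -0.10 to -0.0043 (Gria3 to Gria2), -0.085 to 0.24 (Gria4 to Gria2), -0.021 to 0.050 (Grin2a to Grin2b), 0.076 to 0.19 (Grin2c to Grin2b), 0.11 to 0.24 (Grin2d to Grin2b) and -0.13 to 0.084 (Grin3a to Grin1). Among 42 alternatives, the log2 fold changes of Gria1, Gria2, Gria3, Grin1, Grin2a, Grin2b and Grin3a were below 0 in all. Gria4 was at 0.031 with all 21 libraries, 0.0068 with the transcript length trend, 0.045 with the neocortex score, 0.13 with the neuron score and 0.042 in the low range. Grin2c was at 0.036 with all 21 libraries, 0.040 with the choroid plexus score, 0.097 with the neuron score and 0.13 in the high range. Grin2d was at -0.034 with the neuron score and -0.12 in the high range. With a mouse or set left out, the log2 fold changes ran from -0.25 to -0.032 (Gria1), -0.13 to -0.027 (Gria2), -0.26 to -0.084 (Grin3a), -0.12 to 0.090 (Gria4), -0.075 to 0.025 (Grin2c) and -0.039 to 0.096 (Grin2d). With the set as a random block in limma-voom, the adjusted p of Grin1 was 0.203. In the high range, 3 against 3 mice cannot reach an exact p below 0.10. No paired analysis was possible because the labels give MS and SR mice no shared replicate number.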
